A study of Mus musculus with 62 samples.

Results

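App, its paralogs Aplp1 and Aplp2, and enzymes that cut them were followed as a group of 9 genes. The group was chosen by gene symbol and holds App, Aplp1, Aplp2, Bace1, Bace2, Psen2, Ncstn, Aph1a and Adam10. All 9 had a value in both count tables, each of which lists 27179 genes, and all 9 passed the filter on low counts in every comparison. App and Bace2 lie in the part of chromosome 16 that is present in 3 copies in Ts65Dn mice, and the other 7 genes lie elsewhere and are present in 2 copies.

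App encodes the amyloid precursor protein, a membrane protein made at high levels by neurons. ADAM10, the main alpha-secretase of neurons, cuts it within the amyloid peptide sequence, whereas BACE1, the beta-secretase, cuts at the start of that sequence. The fragment left in the membrane is then cut by gamma-secretase, a complex of a presenilin such as presenilin 2 (Psen2) with nicastrin (Ncstn), an APH-1 subunit (Aph1a) and PEN-2, and this last cut releases the amyloid peptide. Aplp1 and Aplp2 are processed by the same enzymes but lack the amyloid peptide sequence, and BACE2, a relative of BACE1, can cut within it. In Down syndrome the APP gene is carried in an extra copy, and amyloid plaques form at a younger adult age than in other people.

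The RNA came from Ts65Dn mice, a model of Down syndrome that carries an extra chromosome made of distal chromosome 16 joined to the top of chromosome 17. The question was what the extra copy of Brwd1, a chromatin reader gene inside that segment, does to gene expression. For this, mice were bred in which 1 of the 3 copies is the repro5 mutant allele. The tissue was the forebrain of embryos at E17.5, a late embryonic stage, and the hippocampus of mice of 6 weeks. All mice were on a mixed DBA/2J x B6EiC3Sn/J background. The embryos were 8 euploid and 7 Ts65Dn, and their labels give no sex. By Xist and Ddx3y, genes that mark the sexes, each embryo genotype held both. The embryo titles also carry a number, shared by embryos of both genotypes, that the labels do not explain. The adult males were 8 euploid, 7 Ts65Dn and 8 Ts65Dn;Brwd1+/-, the last of which keep 3 copies of App and Bace2. The adult females were 8 of each of these 3 genotypes. All trisomic mice also carry the segment of chromosome 17 in 3 copies, and effects of the 2 segments cannot be told apart. Each library has a sample label of its own. The methods describe each animal of the molecular work as its own n with no pooling, apart from chromatin immunoprecipitation, so a library is taken here as 1 animal.

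Libraries held 14.9 to 62.6 M counted reads (median 28.5 M) in the forebrain and 33.6 to 137.1 M (median 49.5 M) in the hippocampus. Brwd1 itself was 0.53 higher in male and 0.46 higher in female Ts65Dn than in euploid hippocampus on the log2 scale (adjusted p = 0.00984 and 0.0243), and 0.56 higher in the Ts65Dn forebrain (adjusted p = 1.19e-05). In the Ts65Dn;Brwd1+/- hippocampus Brwd1 stood 0.25 below Ts65Dn in both males and females, with adjusted p-values of 0.627 and 0.9999. It stood 0.28 above euploid in males and 0.21 above euploid in females (adjusted p = 0.231 and 0.453). Read from the triplicated genes other than App and Bace2, 4 adult libraries that carry a trisomic label had a dosage near that of euploid mice. These were male Ts65Dn B145, male Ts65Dn;Brwd1+/- B138 and T35, and female Ts65Dn;Brwd1+/- B136. Read from Xist and Ddx3y, the sex of 2 more libraries went against the label, male Ts65Dn B88 and female euploid B85. All 6 were kept under their labels, and values without them are given where they matter, but not for Brwd1. The Brwd1 differences above include these libraries. On the log2 scale the Brwd1 level was 6.5 and 6.79 in B138 and T35, against 7.05 to 7.26 in the other Ts65Dn;Brwd1+/- males. It was 6.58 in B136, against 6.79 to 7.28 in the other Ts65Dn;Brwd1+/- females. It was 6.93 in B145, against 7.2 to 7.47 in the other Ts65Dn males. Sums of the marker genes of hippocampal neurons ranged from 90.7 to 851 CPM (counts per M counted reads, after TMM scaling of library sizes) among the embryos and from 389 to 779 CPM among the adults, and those of choroid plexus from 54.5 to 1607 CPM and from 36.1 to 6366 CPM, so the makeup of the dissected tissue varied. In such bulk samples, fewer cells of a type and less RNA per cell cannot be told apart.

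The promoters of the 3 precursor genes are shown as a description. App and Aplp2 moved together among the embryos whereas Aplp1 followed App less closely (r = 0.90 and 0.48). Whether the promoters have a part in this was not tested. Each sequence is printed 5′ to 3′ on the gene's own minus strand, from RefSeq for GRCm38.p6, and ends before the first annotated exon in GENCODE. Capitals mark GC boxes, the letters GGGCGG or its reverse complement CCGCCC, a motif known to bind Sp1-type factors.
App: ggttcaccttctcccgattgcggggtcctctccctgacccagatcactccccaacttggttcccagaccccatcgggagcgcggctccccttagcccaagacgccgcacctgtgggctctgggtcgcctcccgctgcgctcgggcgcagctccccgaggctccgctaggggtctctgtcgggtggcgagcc
Aplp1: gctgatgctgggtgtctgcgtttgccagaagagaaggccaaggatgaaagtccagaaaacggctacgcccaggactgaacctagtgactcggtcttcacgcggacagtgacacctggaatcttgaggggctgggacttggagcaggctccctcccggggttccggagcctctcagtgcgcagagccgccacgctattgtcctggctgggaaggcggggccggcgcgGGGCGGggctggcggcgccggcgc
Aplp2: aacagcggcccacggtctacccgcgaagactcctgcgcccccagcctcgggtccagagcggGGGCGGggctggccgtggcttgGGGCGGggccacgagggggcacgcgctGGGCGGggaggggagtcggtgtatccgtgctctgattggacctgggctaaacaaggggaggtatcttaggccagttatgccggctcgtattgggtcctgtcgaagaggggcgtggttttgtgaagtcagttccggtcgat
The App window is chr16:85173767-85173957 (191 bases), the Aplp1 window chr7:30445583-30445832 and the Aplp2 window chr9:31211849-31212098 (250 bases each). The gene record of App in RefSeq begins 5′ of its window, so the window may be transcribed in a longer form of the gene. The window of App printed here held 0 GC boxes and the 250 bases before its RefSeq start held 1, against 1 for Aplp1 and 3 for Aplp2. Adam10, whose promoter is not printed, also held 3. Of 32851 RefSeq promoters, 32.7% held at least 1 such box in these 250 bases and 8.47% held at least 3. Of the 9 genes, 7 had a promoter in the table; Bace1 and Bace2 had none.

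App was the only one of the 9 genes called in the forebrain of Ts65Dn embryos, at an adjusted p under 0.1, where 1.35% of the 16395 genes tested were called. The App level was 509 CPM in the lowest, 712 in the median and 881 in the highest of the 8 euploid embryos. In the 7 Ts65Dn embryos it was 1056, 1423 and 1462 CPM. Every Ts65Dn embryo thus lay above every euploid embryo. The difference was 0.86 on the log2 scale (SE 0.11, 1.81-fold, adjusted p = 0.000287). Its 95% interval ran from 0.62 to 1.09 and lay above 0.585, the log2 of the ratio of 3 copies to 2. Among the 131 other triplicated genes tested, the median difference was 0.55, 82 were called, and 15 stood higher than App.

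App also rose in the Ts65Dn hippocampus of both sexes. In males, App was the only member called, where 0.795% of 16851 genes were. The male euploid libraries lay at 1816, 1935 and 2016 CPM (lowest, median, highest) and the male Ts65Dn libraries at 1890, 2886 and 3114 CPM. Only library B145, whose dosage goes against its label, fell among the euploid values. The difference was 0.53 on the log2 scale (SE 0.09, adjusted p = 0.00970), and 0.60 without the libraries that go against their labels. In females, App rose from 1682, 1842 and 1978 CPM in euploid to 2841, 3017 and 3172 CPM in Ts65Dn. These groups did not overlap. The female difference was 0.70 on the log2 scale (SE 0.07, 95% interval 0.56 to 0.84, adjusted p = 3.47e-06), and in females 2 of the 9 genes were called, App and Bace2, where 3.17% of 17146 genes were. The other triplicated genes tested had medians of 0.50 in males (131 genes) and 0.52 in females (132 genes), with 49 and 22 of them above App. The sex by genotype interaction of App was 0.17 (SE 0.12, adjusted p = 0.619), and 0 of 17427 genes (0.0%) passed in that test, in which 1935 (11.1%) had an unadjusted p under 0.05 and DESeq2 called 94. Without male Ts65Dn B145 the App interaction was 0.09.

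**Figure D1:**
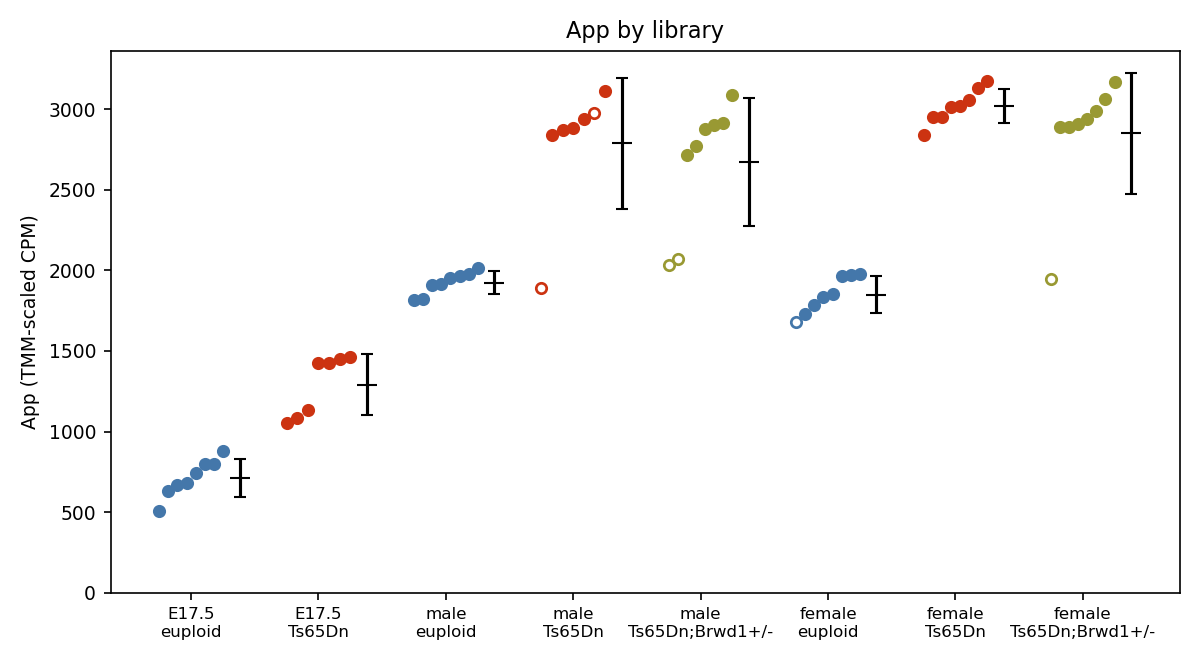
App level in CPM in each library, by group, sorted within groups, with the mean ± SD as bars and open points for libraries that go against their labels. The Ts65Dn embryos sit between 1056 and 1462 CPM, all above the euploid embryos, and among adult libraries with a trisomic label 4 sit near the euploid level.

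App stayed near its Ts65Dn level where 1 of the 3 copies of Brwd1 was the mutant allele. In Ts65Dn;Brwd1+/- males the App level was 2031, 2825 and 3086 CPM, and in females 1947, 2925 and 3167 CPM (lowest, median, highest). The lowest libraries of both groups were among the 3 whose dosage goes against the label, and both groups overlapped Ts65Dn. Against Ts65Dn the difference in App was -0.06 in males (SE 0.09) and -0.08 in females (SE 0.07), with adjusted p-values of 0.930 and 0.9999. Without the libraries that go against their labels these differences were -0.02 in each sex, and the male value ran from -0.14 without Ts65Dn B145 to -0.01 without Ts65Dn;Brwd1+/- B138. The 95% intervals ended at -0.25 and -0.22 on the low side. Of the 9 genes, 0 were called in either sex, and 0 had an unadjusted p under 0.05. Over all genes, edgeR called 0 of 16851 in males and 0 of 17146 in females (0.0% each), against 1261 (7.48%) and 604 (3.52%) at an unadjusted p under 0.05, whereas DESeq2 called 1 and 14.

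Against euploid mice, which are the same animals as in the Ts65Dn comparison, App was 0.47 higher in Ts65Dn;Brwd1+/- males (SE 0.09, adjusted p = 0.0227) and 0.62 higher in females (SE 0.07, adjusted p = 4.48e-05). App was the only member called in each, where 0.576% of all genes were called in males and 0.729% in females. The male groups did not overlap, but Ts65Dn;Brwd1+/- B138 (2031 CPM) and T35 (2069 CPM) lay just above the highest euploid male (2016 CPM). The female groups overlapped through library B136. These libraries have a dosage near euploid and lower the differences above. Without libraries that go against their labels, App in Ts65Dn;Brwd1+/- males averaged 0.58 above the mean of all euploid males (log2 scale). In females the averages were 0.69 in Ts65Dn;Brwd1+/- and 0.02 in euploid libraries, relative to all euploid females. The male call was lost when the sum of hippocampal neuron markers was added to the fit, where App differed by 0.37 (adjusted p = 0.127) and 0 of 16851 genes were called. That sum was 474, 591 and 700 CPM in euploid males and 436, 492 and 630 CPM in Ts65Dn;Brwd1+/- males, and its part in the App difference was not tested apart from this fit.

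App divided the adult libraries of trisomic label in the same way as the dosage of its segment. In the 27 adult libraries of trisomic label and raised dosage, App stood 0.50 to 0.78 above the euploid mean of the same sex on the log2 scale, and the median of the other triplicated genes 0.50 to 0.62. In the 4 libraries of trisomic label with a dosage near euploid, App stood between -0.02 and 0.11 and the other triplicated genes between -0.01 and 0.04. The sets of 27 and 4 do not overlap in either measure, and since the second was used to form them, only App is independent of the split. Within the 27 the 2 measures did not order the libraries alike. Female Ts65Dn B134 had the highest App (0.78) and the lowest median of the other triplicated genes (0.50). Male Ts65Dn;Brwd1+/- B69 had the lowest App (0.50) at a median of 0.59. Less the median of the other triplicated genes, App differed between Ts65Dn;Brwd1+/- and Ts65Dn by -0.0047 in males (exact permutation p = 0.898, adjusted over 2 tests 0.898) and by -0.032 in females (exact permutation p = 0.323, adjusted 0.645), both on the log2 scale and 2-sided.

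**Figure D2:**
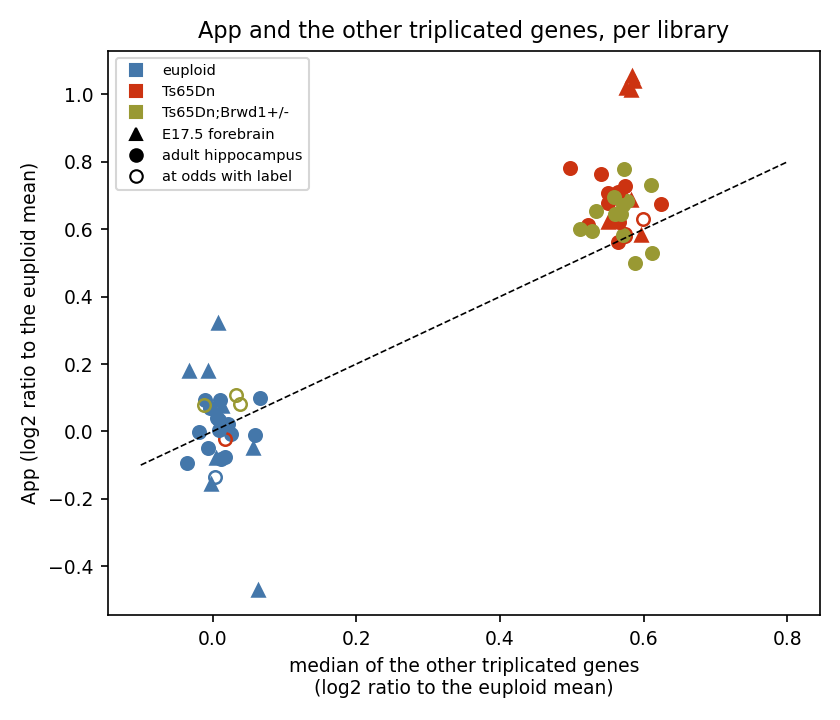
App against the median of the other triplicated genes in each library, both as log2 difference from the euploid mean of the same age and sex, with a dashed line of equality. Adult libraries lie in 2 clumps, near 0 and between 0.50 and 0.78 in App, and the Ts65Dn embryos reach 1.05 in App while their other triplicated genes stay between 0.55 and 0.60.

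Among the Ts65Dn embryos the App level fell into 2 ranges. In 4 embryos (2, 3, 5 and 7) App lay between 1423 and 1462 CPM, 1.01 to 1.05 above the euploid mean on the log2 scale, and in 3 embryos (1, 4 and 6) between 1056 and 1134 CPM, 0.58 to 0.69 above it. The other triplicated genes did not divide them, with medians of 0.55 to 0.60 in all 7. Aplp2, present in 2 copies, was at 365 to 417 CPM in the 4 embryos and at 305 to 331 CPM in the 3. The sum of hippocampal neuron markers was lower in the 4 embryos, at 90.7 to 326 CPM, than in the 3, at 482 to 601 CPM. These ranges are a description made after the App values were seen.

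The spread of App among embryos moved with that of many other genes. With the group means removed, App correlated with the hippocampal neuron markers at r = -0.78 and with thalamus markers at r = 0.66 over the 15 embryos. Over all 11 marker lists its r ran from -0.78 to 0.66. Among its fellow members App correlated with Aplp2 at r = 0.90, with Bace1 at 0.74, with Psen2 at 0.58 and with Adam10 at -0.49. The genes nearest to App by this measure were Lsm11 (r = 0.98), Magee1, Car10, Snap91 (r = 0.97), a clathrin adaptor of synapses, and Slc24a3, a sodium, potassium and calcium exchanger. The most opposed were Cdk4 (r = -0.95), a kinase of the cell cycle, Bnip2, Rbmx, Mcm7 (r = -0.94), a part of the replicative helicase, and Snhg1. These points share libraries and the makeup of the dissected tissue. Neither Snap91 (0.14, SE 0.09) nor Mcm7 (-0.30, SE 0.13) passed the test between Ts65Dn and euploid embryos (adjusted p = 0.549 and 0.379). When the sum of hippocampal neuron markers was added to the fit, the App difference was 0.72 (adjusted p = 2.07e-05).

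Aplp1 and Aplp2 were present in 2 copies in all mice, and neither was called in the main edgeR fit of any comparison of genotypes. Over the other settings the lowest adjusted p of Aplp1 was 0.012, in female Ts65Dn;Brwd1+/- vs euploid. In the forebrain, Aplp1 was at 755, 833 and 906 CPM in euploid and at 638, 850 and 883 CPM in Ts65Dn embryos. The groups overlapped, and the difference was -0.01 on the log2 scale (SE 0.07, adjusted p = 0.938). Aplp2 was at 242, 309 and 372 CPM in euploid and at 305, 365 and 417 CPM in Ts65Dn embryos. The Ts65Dn embryos lay toward the upper end of the euploid range, with a difference of 0.24 (SE 0.09) at an unadjusted p of 0.0161 and an adjusted p of 0.294. With the hippocampal neuron markers in the fit the Aplp2 difference was 0.13 (adjusted p = 0.453). With factors of unwanted variation in the fit (RUVr) it stayed at 0.24 and was called. The adjusted p was 0.0158 with 1 factor and 0.00119 with 3 in edgeR, and 4.36e-07 with 3 in DESeq2. Of all genes, 8.72%, 21.4% and 24.1% were called in these 3 fits.

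In the hippocampus, Aplp2 was among the steadiest genes of its level, with an SD within groups of 0.0591 on the log2 scale, and only 1.26% of the 477 genes of like level had a smaller one. Female Ts65Dn mice had 595, 638 and 672 CPM of Aplp2 against 536, 577 and 632 CPM in euploid females. The groups overlapped, and the difference of 0.12 (SE 0.04) had an unadjusted p of 0.00470 and an adjusted p of 0.115. In males Aplp2 was at 568.3, 603 and 644 CPM in Ts65Dn and at 586, 614 and 628 CPM in euploid mice, a difference of -0.02 (SE 0.03). The difference between the sexes in this contrast was 0.15 (SE 0.05, unadjusted p = 0.00405, adjusted p = 0.267). The call for Aplp2 in females turned on the fit. DESeq2 called it at 0.13 (adjusted p = 0.0162), beside 6.12% of all genes. Without female euploid B173 edgeR called it too (0.15, adjusted p = 0.0510). Aplp1 was at 1462, 1533 and 1599 CPM in female Ts65Dn and at 1367, 1472 and 1865 CPM in female euploid libraries, where the highest value came from B125. In males it was at 1376, 1486 and 1590 CPM in Ts65Dn and at 1373, 1440 and 1566 CPM in euploid libraries. Both pairs of groups overlapped, with differences of 0.02 in females (SE 0.06) and 0.04 in males (SE 0.04).

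The App share of the precursor family, each gene's reads divided by its transcript length, rose with trisomy at both ages. In the forebrain the share was 33.7% ± 2.89 (SD, n = 8) in euploid and 47.3% ± 2.59 (SD, n = 7) in Ts65Dn embryos, and the groups did not overlap. The difference was 13.6 percentage points (exact permutation p = 0.000311, the smallest this design can give, adjusted over 5 tests 0.000777). In males the share was 43.5% ± 1.01 (SD, n = 8) in euploid and 51.9% ± 3.37 (SD, n = 7) in Ts65Dn mice, with an overlap through library B145 at 44.3% (exact permutation p = 0.000932, adjusted 0.00155). In females it was 42.2% ± 2.14 (SD, n = 8) and 53.4% ± 0.667 (SD, n = 8), with no overlap (exact permutation p = 0.000155, the smallest possible, adjusted 0.000777). Between Ts65Dn;Brwd1+/- and Ts65Dn the share differed by -1.05 points in males (exact permutation p = 0.582, adjusted 0.582) and -2.01 points in females (exact permutation p = 0.189, adjusted 0.237). Without the libraries that go against their labels these differences were -0.223 points (exact permutation p = 0.593, adjusted 0.593) and -0.911 points (exact permutation p = 0.379, adjusted 0.473). With all annotated exons as the length, a setting added after the data were seen, the shares were lower, 14.3% and 22.9% in euploid and Ts65Dn embryos, since App then counts as 13 kb in place of 3.18 kb.

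**Figure D3:**
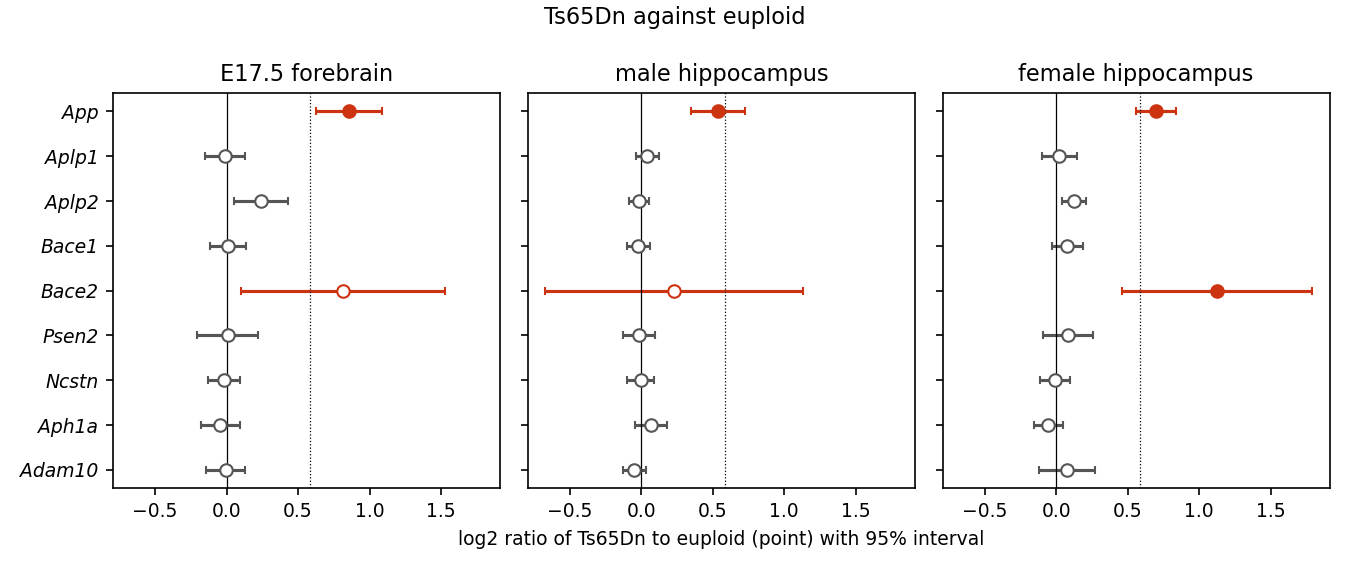
Log2 difference of each of the 9 genes between Ts65Dn and euploid libraries in the forebrain, the male and the female hippocampus, with 95% intervals, filled points for genes called at an adjusted p under 0.1, red for the triplicated App and Bace2, and a dotted line at 0.585. App lies at 0.86, 0.53 and 0.70, and the 7 genes of 2 copies lie between -0.05 and 0.24.

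Bace2, the second triplicated member, was scarce and varied more between libraries than App. In the forebrain it was at 0.739, 1.07 and 4.52 CPM in euploid and at 1.76, 2.54 and 3.36 CPM in Ts65Dn embryos. Most euploid embryos lay below the Ts65Dn range, but euploid embryo 3, the least deeply sequenced library at 14.9 M reads, lay above it. The difference was 0.81 on the log2 scale (SE 0.34, adjusted p = 0.356), and 18 of the 131 other triplicated genes stood higher. Without embryo 3 the difference was 1.23 (adjusted p = 0.0121), and then 2 of the 9 genes were called.

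In female Ts65Dn hippocampus Bace2 rose, at 2.11, 4.67 and 6.57 CPM against 0.959, 1.52 and 4.27 CPM in euploid females. The groups overlapped. The difference of 1.13 (SE 0.32, adjusted p = 0.0756) was larger than that of all but 1 of the other triplicated genes. The sum of hippocampal neuron markers was 389, 474 and 620 CPM in these Ts65Dn and 476, 569 and 713 CPM in these euploid females. With that sum in the fit the Bace2 difference was 0.62 (adjusted p = 0.330). The call was also lost when 1 library at a time was left out for 10 of the 24 libraries (1.03 to 1.15, adjusted p up to 0.155), namely Ts65Dn B103, B134, B135 and B53 and euploid B12, B17, B184, B21, B65 and B85. Over the settings other than leaving out 1 library, the Bace2 difference ran from 0.62 to 1.25. Its adjusted p-values there ran from 5.05e-07 to 0.330. In males Bace2 was at 0.753, 2.103 and 4.76 CPM in euploid, 1.05, 1.93 and 7.52 CPM in Ts65Dn and 1.43, 4.09 and 7.0 CPM in Ts65Dn;Brwd1+/- mice. The 3 male groups overlapped, and Ts65Dn differed from euploid by 0.23 (SE 0.43, adjusted p = 0.927), by -0.06 without the libraries that go against their labels and by -0.21 without B88 alone. Male Ts65Dn;Brwd1+/- mice differed in Bace2 from Ts65Dn by 0.46 (SE 0.43, adjusted p = 0.855) and from euploid by 0.69 (SE 0.42, adjusted p = 0.614), and with the sum of hippocampal neuron markers in the fit by -0.19 and -0.05. The interaction of sex with Ts65Dn vs euploid was 0.91 (SE 0.55, adjusted p = 0.561), with adjusted p-values from 0.0366 to 0.853 over the settings. Female Ts65Dn;Brwd1+/- mice had 1.96, 3.75 and 7.36 CPM of Bace2 and differed from Ts65Dn by -0.10 (SE 0.32, adjusted p = 0.9999) and from euploid by 1.03 (SE 0.32, adjusted p = 0.218). For the difference from euploid, adjusted p-values ran from 9.63e-06 to 0.53 over the settings.

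Within groups of adults, Bace2 ran against the markers of hippocampal neurons. With the group means removed, r was -0.79 over the 47 libraries, the lowest among 11 marker lists. These points share a library's reads, and several come from libraries that go against their labels. The SD of Bace2 within adult groups was 0.765 on the log2 scale, larger than that of 95% of 2573 genes of like level. With the levels as measured, group differences included, the 3 genes nearest to Bace2 across the 47 libraries were Pafah1b3 (r = 0.85), Idh1 (r = 0.84), the cytosolic isocitrate dehydrogenase, and Cpne2 (r = 0.82), none of them in a triplicated segment.

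**Figure D4:**
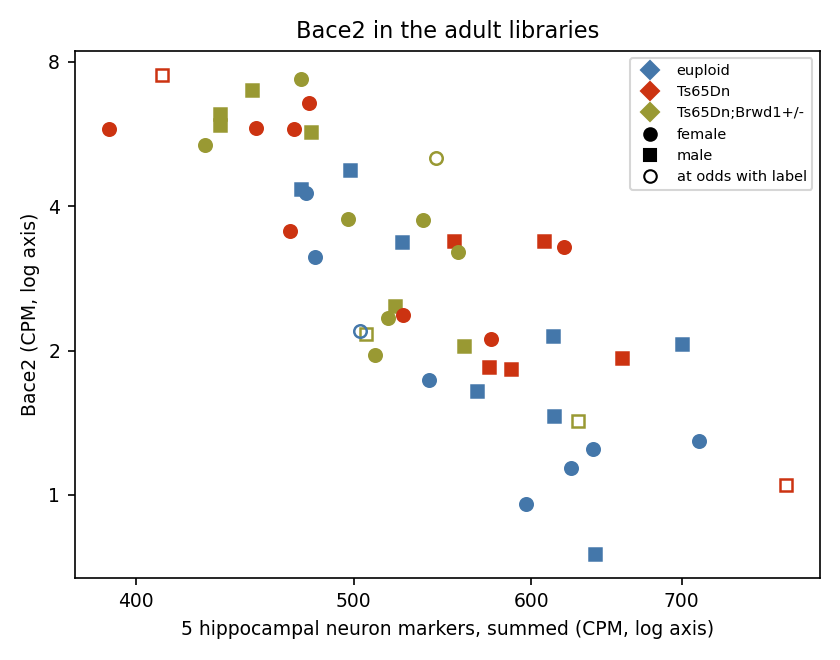
Bace2 level against the summed level of hippocampal neuron markers in the 47 adult libraries, both in CPM on log axes, by group. Bace2 spans 0.753 to 7.52 CPM and tends to be lower where the markers are higher.

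The enzymes that cut App first did not pass the test between genotypes at either age in the main edgeR fit. Bace1, the beta-secretase, was at 88.6, 105 and 112 CPM in euploid and at 91.2, 106 and 116 CPM in Ts65Dn embryos, which overlapped (0.01, SE 0.06). In the hippocampus its medians lay between 111 and 117 CPM in all 6 groups, and its differences between Ts65Dn and euploid were -0.02 in males (SE 0.04) and 0.08 in females (SE 0.05). Adam10, the alpha-secretase, was at 83.3, 96.9 and 116 CPM in euploid and at 91.1, 95.2 and 104 CPM in Ts65Dn embryos (-0.01, SE 0.07). In the hippocampus Adam10 differed between Ts65Dn and euploid by -0.05 in males (SE 0.04) and 0.08 in females (SE 0.10). With 3 RUVr factors in DESeq2 both enzymes were called in female Ts65Dn vs euploid, where 25.4% of all genes were. Over the settings their lowest adjusted p-values there were 0.0167 (Bace1) and 0.0733 (Adam10). For the interaction of sex with Ts65Dn vs euploid the lowest were 0.0738 and 0.0387. Among euploid females, library B125 stood at 41.6 CPM, where the group median was 66.4 CPM.

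The 3 gamma-secretase subunits did not pass either. Ncstn, which holds the substrate, was at 71.5, 74.6 and 89.5 CPM in euploid and 69.2, 75.2 and 79.7 CPM in Ts65Dn embryos. The ranges overlapped, with a difference of -0.02 (SE 0.05). Psen2, one of the catalytic presenilins, differed by 0.01 (SE 0.10) and Aph1a, a scaffold subunit, by -0.04 (SE 0.06). In the hippocampus the differences of Ncstn, Psen2 and Aph1a between Ts65Dn and euploid ran from -0.05 to 0.08 over both sexes. Over the 7 genes of 2 copies the median difference was -0.01 in the forebrain, -0.01 in males and 0.08 in females, beside -0.01, 0.00 and -0.02 over all genes tested, and their smallest adjusted p-values were 0.294, 0.781 and 0.115. Between Ts65Dn;Brwd1+/- and Ts65Dn the 7 genes lay between -0.04 and 0.06 in males and between -0.04 and 0.05 in females.

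Between the sexes, 0 of the 9 genes were called in euploid mice, where 3.71% of 16693 genes were, and 0 in Ts65Dn mice, where 0.00598% of 16719 genes (1 gene) were. Without the libraries that go against their labels, among them female euploid B85 and male Ts65Dn B88 whose sex does, 0.456% and 0.0535% of all genes were called, and again 0 of the 9. At an unadjusted p under 0.05 were Ncstn (0.11, SE 0.05, adjusted p = 0.229), Aph1a (0.12, SE 0.06, adjusted p = 0.296) and Adam10 (-0.18, SE 0.08, adjusted p = 0.279) among euploid mice, as female minus male, and Ncstn (0.11, SE 0.05, adjusted p = 0.978) among Ts65Dn mice. Over all genes, 16.8% in euploid and 4.38% in Ts65Dn mice passed that unadjusted threshold. Without female euploid B125, Adam10 was called, at -0.11 (adjusted p = 0.0571). App differed by -0.05 (SE 0.05) in euploid and 0.12 (SE 0.08) in Ts65Dn mice, and the Ts65Dn value was 0.04 without male Ts65Dn B145.

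Per length of transcript, the order of the 9 levels was headed by the precursors at both ages. In the euploid forebrain Aplp1 was at 355 CPM per kb, App at 225 and Aplp2 at 84.6 (means of 8 libraries), and the ranges of these 3 did not overlap. Ncstn (26.3), Adam10 (21.1) and Bace1 (17.2) followed, with Ncstn overlapping Adam10 and Adam10 overlapping Bace1, then Aph1a (10.8) and Psen2 (7.91), which overlapped, and Bace2 (0.204). In the euploid hippocampus Aplp1 at 630 CPM per kb and App at 594 overlapped (16 libraries), and Aplp2 stood below both at 164. Ncstn (19.9), Bace1 (18.4), Adam10 (14.9) and Psen2 (9.85) formed a run in which each overlapped the next, above Aph1a (4.08) and Bace2 (0.298). With all annotated exons as the length, App fell to 145.1 CPM per kb in the hippocampus against 489 for Aplp1, and these did not overlap. In the forebrain App then stood at 54.9 and Aplp2 at 52.3, with overlapping ranges. Adam10 (19.8) then stood above Ncstn (19.2) there, also with overlap.

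All 9 genes were called between the euploid hippocampus at 6 weeks and the euploid forebrain at E17.5, where 84.6% of 17234 genes were, so a call here sets no member apart. Of the 9, 6 were higher and 3 lower in the hippocampus, beside 41.7% and 42.9% of all genes. Age, brain region and any difference in library batch cannot be told apart in this comparison. Normalised together, App was at 436, 615 and 757 CPM in the 8 forebrains and at 1818, 2063 and 2185 CPM in the 16 hippocampi, with no overlap (1.72 on the log2 scale, SE 0.07, adjusted p = 1.58e-17). Aplp1 (1.15), Aplp2 (1.28) and Psen2 (0.64) were higher in the hippocampus, also without overlap. The share of all genes without overlap was not counted, so a lack of overlap sets no member apart either. Bace1 (0.42) and Bace2 (0.89, adjusted p = 0.0286) were higher there with overlapping ranges.

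Of the 3 members that were lower in the hippocampus, Aph1a differed the most. It stood at 24.4, 26.4 and 29.7 CPM in the forebrain and at 10.6, 12.5 and 14.9 CPM in the hippocampus. The groups did not overlap, and the difference was -1.08 (SE 0.05, adjusted p = 5.65e-17). Adam10 (-0.19, SE 0.07, adjusted p = 0.0149), not called with male adults only (-0.11, adjusted p = 0.109), and Ncstn (-0.08, SE 0.04, adjusted p = 0.0757) were lower in the hippocampus with overlapping ranges. The call for Ncstn was lost in 12 of the 24 fits that left out 1 library, with the difference nearest to 0 without E17.5 euploid 3 (-0.05, adjusted p = 0.239), and also with DESeq2, with no filter on low counts, without B85 and with female adults only (-0.02, adjusted p = 0.729). The call for Bace2 was lost with female adults only (0.72, adjusted p = 0.110). There 7 of the 9 genes were called, the fewest under any setting, beside 80.9% of all genes.

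**Figure D5:**
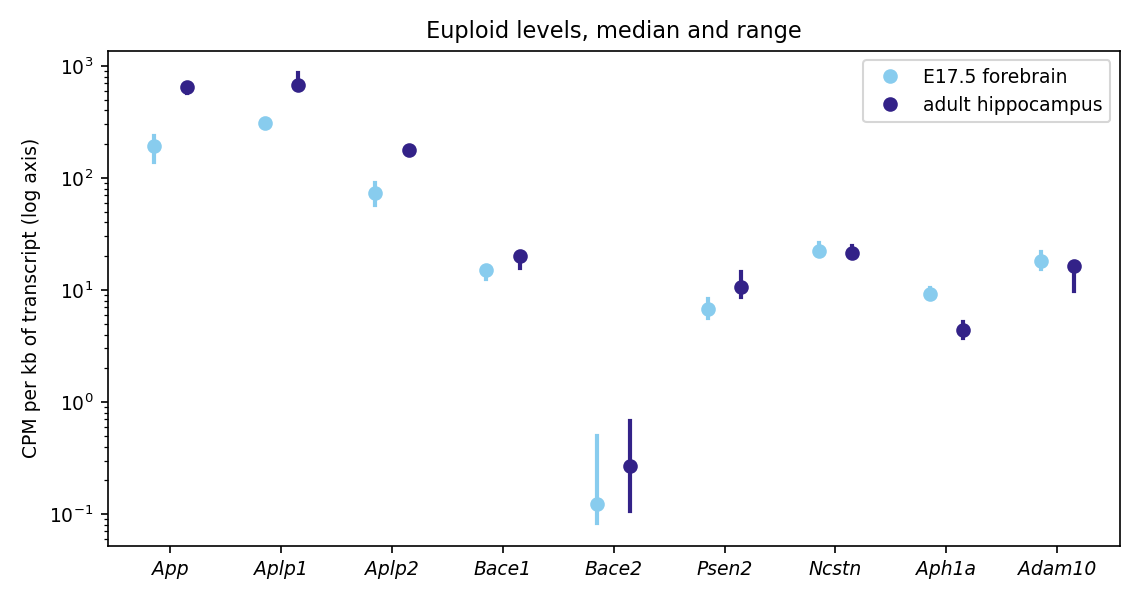
Level of each of the 9 genes per kb of transcript, in CPM per kb on a log axis, in 8 euploid forebrains at E17.5 and 16 euploid hippocampi at 6 weeks, with the median as a point and the range as a line. App, Aplp1, Aplp2 and Psen2 lie higher and Aph1a lower in the hippocampus without overlap, and the ranges of the other 4 genes overlap. The share of all genes without overlap was not counted, and 84.6% of 17234 genes were called between these groups.

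Other genes of the pathway were read from a list of 49, made of further secretase subunits and sheddases (8), adaptors and sorting receptors of App (18), genes of amyloid peptide degradation, binding and uptake (12) and other substrates of the same enzymes (11). In Ts65Dn embryos 1 of the 49 (2.04%) rose and 0 fell, beside 1.35% of all genes called, a share near that background. The gene was A2m, a secreted protease inhibitor that binds the amyloid peptide, at 12.6 CPM ± 2.31 (SD, n = 8) in euploid and 24.3 CPM ± 12.6 (SD, n = 7) in Ts65Dn embryos (0.94, SE 0.24, adjusted p = 0.0978). Its call was lost with no filter on low counts and with each covariate tried, the lowest difference being 0.52 with the hippocampal neuron markers (adjusted p = 0.157). In male Ts65Dn hippocampus 0 of the 49 were called, beside 0.795% of all genes, and in females 2 (4.08%), beside 3.17%. In females L1cam, a neuronal adhesion molecule, rose by 0.21 (SE 0.06, adjusted p = 0.0750) and Apbb3, an adaptor that binds the tail of App, fell by 0.21 (SE 0.06, adjusted p = 0.0741). Without the female libraries that go against their labels (B85 and B136) both calls were lost (L1cam 0.20, adjusted p = 0.135, and Apbb3 -0.19, adjusted p = 0.162). The medians of the 49 were 0.00 in the forebrain, -0.01 in males and 0.02 in females, beside -0.01, 0.00 and -0.02 over all genes tested.

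The pathway list showed 0 called genes between Ts65Dn;Brwd1+/- and Ts65Dn in either sex, and 0 between Ts65Dn;Brwd1+/- and euploid mice, where 7 genes in males and 6 in females had an unadjusted p under 0.05, as did 10.1% and 11.2% of all genes. Between female and male euploid mice Apbb3 (0.24, adjusted p = 0.0658) and Apba3 (0.30, adjusted p = 0.0814) were higher in females and Scn2b (-0.18, adjusted p = 0.0748), a sodium channel subunit and BACE1 substrate, was lower. These are 3 of the 49 (6.12%), beside 3.71% of all genes, and all 3 calls were lost without B85 (adjusted p = 0.122, 0.130 and 0.119). Between the forebrain at E17.5 and the hippocampus at 6 weeks, 29 of the 49 (59.2%) were higher and 11 (22.4%) lower in the hippocampus, beside 41.7% and 42.9% of all genes. Those with the smallest p-values that were higher were Scn2b (3.94), Prnp (2.34), Itm2c (2.96), Clu (4.06), Itm2b (1.81), Sort1 (2.44) and Apoe (3.18), on the log2 scale. Prnp encodes the prion protein, Clu and Apoe encode apolipoproteins that bind amyloid peptide, and Sort1 encodes the sorting receptor sortilin. L1cam was lower, at -1.38.

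Across the 47 adult libraries the genes most like App were Ifngr2 (r = 0.96), a subunit of the interferon gamma receptor, Gart (r = 0.96), an enzyme of purine synthesis, Cct8 (r = 0.96), a chaperonin subunit, Ifnar1 (r = 0.95), a subunit of the type I interferon receptor, and Tmem50b (r = 0.95). All 5 lie in the triplicated segment of chromosome 16, so the points share the trisomy itself. Outside the segments as bounded here the nearest were A730009L09Rik (r = 0.93), which also lies on chromosome 16, Vsig2 (r = 0.86), Selenov (r = 0.86), Mpc1-ps (r = 0.86) and Cdkl3 (r = 0.82). With the group means removed A730009L09Rik was at r = 0.82. The bounds are a choice from general knowledge, and the copy number of these genes was not measured. Among the members, Bace2 (r = 0.54) was nearest to App and Adam10 (r = -0.02) and Ncstn (r = -0.01) the farthest.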

How the data were processed

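RNA was sequenced (polyA-selected, unstranded, single reads) from 15 forebrains and 47 hippocampi. The authors mapped reads to mm10 with HISAT2 (2.2.1 in the paper's methods, 2.1.0 in the submitters' processing notes), counted them on genes with featureCounts 2.0.1 and deposited raw counts for 27179 genes in each of 2 tables. Without strand, reads of overlapping antisense genes cannot be told apart.

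Counts were tested with edgeR 4.0.16 in R 4.3.3 (its robust quasi-likelihood test, TMM scaling, and filterByExpr with min.count set to 10), with Benjamini-Hochberg adjustment over all genes tested and a threshold of 0.1. Within each sex, 1 fit held the 3 genotypes. The embryos, the sexes of a genotype and the ages had fits of their own, and interactions used all 6 adult groups. CPM used TMM library sizes within a table, and over both tables for the ages. Log2 differences give the second group named after "vs" as the base. Lengths are those of the longest CCDS transcript in GENCODE M21, in place of the planned RefSeq exon length, which was not used here. Shares and App relative to other triplicated genes were compared by exact 2-sided permutation tests, at 0.05. Triplicated segments run from Mrpl39 on chromosome 16 and up to Pde10a on chromosome 17, a choice from general knowledge. Correlations used log2 (CPM + 0.1). Like level means a mean within 2-fold. The 11 marker lists cover brain cell types and regions.

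The members, the pathway list and the marker lists were chosen with earlier results of these data known. Named genes beyond the members were, by rule, the pathway genes called (with age, those of smallest p) and the genes most like App or Bace2. Brwd1, Xist and Ddx3y check labels, and Snap91 and Mcm7 were tested after their correlations were seen. Alternatives were DESeq2 1.42.0, RUVr factors, other scaling, filters, thresholds, covariates, sets of libraries and leaving out each library. Scripts were tested on simulated data. Pairs of libraries within a group differed by more than sampling noise (chi-square per degree of freedom of at least 7.64), so each was counted once. Of the reads, 0.284% in the hippocampus and 0.794% in the forebrain fell on genes without a match in the annotation, which were kept.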

Additional observations from a re-analysis of the deposited data

Results flagged for a closer look

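Of 88 groups of values tested for a library that stands apart from its group (Dixon's test at 95%), 18 had one, where chance gives about 1 in 20. The groups share libraries, and 4 libraries account for more than 1 of the 18 each.

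App was lowest in male Ts65Dn at library B145 (1890 CPM), where the App share was 44.3%, and lowest in female Ts65Dn;Brwd1+/- at B136 (1947 CPM). The other triplicated genes of both libraries were near the euploid level, 0.0178 and -0.0122 on the log2 scale. App less the median of the other triplicated genes was highest in female Ts65Dn;Brwd1+/- at B181 (0.21).

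Female euploid B125 stood apart in Aplp1 (1865 CPM, highest), Aph1a (13.8 CPM, highest), Adam10 (41.6 CPM, lowest) and App share (37.9%, lowest). Female Ts65Dn;Brwd1+/- B176 stood apart in Aplp1 (1960 CPM, highest), Bace1 (94.3 CPM, lowest) and Adam10 (43.2 CPM, lowest). Both libraries took more of their reads from their 100 largest genes, 18.77% and 19.01%, than the others of their groups, whose highest values were 17.98% and 18.22%. The part of this in the values of the 9 genes was not tested.

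E17.5 euploid 3, the library of fewest reads, was highest in Bace2 (4.52 CPM) and Ncstn (89.5 CPM). E17.5 Ts65Dn 6 was lowest in Aplp1 (638 CPM). Male Ts65Dn B88, whose sex goes against its label, was highest in Bace2 (7.52 CPM). Female Ts65Dn B134 was highest in Bace1 (125.1 CPM), male Ts65Dn;Brwd1+/- T35 highest in Ncstn (65.1 CPM) and male Ts65Dn B45 lowest in Aph1a (10.4 CPM).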

How the results depend on the processing

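The calls of App between trisomic and euploid mice kept their direction and stayed past the threshold under all other settings and with any 1 library left out, except in male Ts65Dn;Brwd1+/- vs euploid with the hippocampal marker covariate (0.374, adjusted p = 0.127), where 0 members were called in place of 1. Over the settings App ranged from 0.72 to 0.88 in embryos, 0.52 to 0.60 in male and 0.65 to 0.71 in female Ts65Dn. The sum of hippocampal neuron markers and, for the embryos, that of choroid plexus markers were added as covariates, and all exons as the length, after the data were seen.

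The number of the 9 genes called was 3 in embryos with 1 or 3 RUVr factors in edgeR and with 3 in DESeq2. RUVr factors are factors of unwanted variation taken from residuals. Of all genes, 8.72%, 21.4% and 24.1% were called in these 3 settings. In female Ts65Dn vs euploid the number was 5 with DESeq2 and 3 RUVr factors and 4 with edgeR and 3. Of all genes, 25.4% and 23.2% were called there. The number was 1 with the hippocampal marker covariate (1.17% of all genes) and without the libraries that go against their labels (1.9%). It was also 1 with only the 2 groups compared (2.0%) and at an FDR of 0.05 (1.54%). In female Ts65Dn;Brwd1+/- vs euploid it was 2 with DESeq2, 4 with DESeq2 and 3 RUVr factors, 2 with edgeR and 1 factor, and 4 with edgeR and 3. For the interaction of sex with Ts65Dn vs euploid it was 4, 1 and 3 in the last 3 of these settings, for female vs male euploid 5, 2 and 3, and for female vs male Ts65Dn 1 with DESeq2 and 3 RUVr factors. With 1 library left out it ran from 1 to 2 in embryos, 1 to 3 in female Ts65Dn vs euploid, 1 to 2 in female Ts65Dn;Brwd1+/- vs euploid and 0 to 1 in female vs male euploid.

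Over all genes the share called was 1.35% in embryos (0.701% to 24.1% under the other settings). In Ts65Dn vs euploid it was 0.795% (0.491% to 6.98%) in males and 3.17% (1.17% to 25.4%) in females. In Ts65Dn;Brwd1+/- vs euploid it was 0.576% (0.0% to 7.64%) in males and 0.729% (0.398% to 20.6%) in females, and between the 2 trisomic genotypes it was 0.0% (up to 5.63% in males and 4.9% in females). It was 3.71% (0.312% to 27.3%) for female vs male euploid, 0.00598% (up to 3.58%) for female vs male Ts65Dn, 84.6% (72.1% to 88%) for the ages and 0.0% for the 2 interactions (up to 14.8% and 1.29%). The highest shares came with 3 RUVr factors in DESeq2, and none of the 9 genes was called between Ts65Dn;Brwd1+/- and Ts65Dn under any of them.

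The replicate numbers shared by euploid and Ts65Dn embryos do not pair them in the labels. Over 7 pairs the deviations of same-numbered embryos correlated at -0.16 to 0.26, 2 of 7 above 0.1, and 0 embryos correlated best with their own number. With the replicate block App differed by 0.85 (adjusted p = 0.00845), 1 member was called, and 0.741% of all genes were called. With the number in the embryo titles as covariate App differed by 0.86 (adjusted p = 0.000467). With the presence of Ddx3y as covariate it differed by 0.83 (adjusted p = 0.000319). No paired analysis was possible in the adults because their labels share no numbers between groups.

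Differences that did not pass the test changed sign in places, all with adjusted p-values over 0.1, and the causes were not tested. Most lay near 0, but Bace2 had been at 0.46 in male Ts65Dn;Brwd1+/- vs Ts65Dn, at 0.69 vs euploid and at -0.57 in the interaction before the hippocampal marker covariate was added. With DESeq2 and 3 RUVr factors, the values were Adam10 0.0044 (E17.5 Ts65Dn vs euploid), Ncstn 0.0026 (female Ts65Dn vs euploid), Psen2 -0.0029 (female Ts65Dn;Brwd1+/- vs Ts65Dn). With edgeR and 3 RUVr factors, the values were Adam10 0.0009 (E17.5 Ts65Dn vs euploid). With upper-quartile scaling, the values were Adam10 0.0185, Aplp1 0.0083 and Ncstn 0.0071 (E17.5 Ts65Dn vs euploid). With no filter on low counts, the values were Adam10 0.0031 (E17.5 Ts65Dn vs euploid), Aph1a -0.0042 (female vs male Ts65Dn). With the hippocampal marker covariate, the values were Adam10 0.0478, Psen2 -0.0881 and Bace1 -0.0338 (E17.5 Ts65Dn vs euploid), Aplp1 -0.0169 and Bace2 -0.1871 (male Ts65Dn;Brwd1+/- vs Ts65Dn), Bace1 -0.0079 and Bace2 -0.0476 (male Ts65Dn;Brwd1+/- vs euploid), Aplp1 -0.0564 and Psen2 -0.0313 (female Ts65Dn vs euploid), Bace2 0.0729 and Ncstn 0.0038 (female Ts65Dn;Brwd1+/- vs Ts65Dn), Ncstn -0.0007 (the interaction of Ts65Dn vs euploid), App 0.0699, Psen2 0.0279 and Bace2 0.1964 (the interaction of Ts65Dn;Brwd1+/- vs Ts65Dn), Aplp1 -0.0131 and Bace1 -0.0065 (female vs male Ts65Dn). With the choroid plexus covariate, the values were Psen2 -0.0468 (E17.5 Ts65Dn vs euploid), Ncstn 0.0186 (male Ts65Dn vs euploid), Ncstn 0.0029 (female Ts65Dn vs euploid), Psen2 -0.0138 (female Ts65Dn;Brwd1+/- vs Ts65Dn), Ncstn -0.0098 (the interaction of Ts65Dn vs euploid), Aph1a -0.0016 (female vs male Ts65Dn). With the replicate block, the values were Adam10 0.036 and Psen2 -0.0203 (E17.5 Ts65Dn vs euploid). With the presence of Ddx3y as covariate, the values were Adam10 0.0189 and Psen2 -0.0397 (E17.5 Ts65Dn vs euploid). Without the libraries that go against their labels, the values were Bace1 0.0082 and Bace2 -0.0637 (male Ts65Dn vs euploid), Aplp1 -0.0043 (male Ts65Dn;Brwd1+/- vs Ts65Dn), Ncstn -0.0071 (the interaction of Ts65Dn vs euploid), App 0.0051 (the interaction of Ts65Dn;Brwd1+/- vs Ts65Dn), Psen2 0.0272 (female vs male euploid), Bace1 -0.0054 (female vs male Ts65Dn). With DESeq2, the values were Ncstn 0.0016 (female Ts65Dn vs euploid). With all 6 adult groups in 1 fit, the values were Ncstn 0.0016 (female Ts65Dn vs euploid).

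Leaving out 1 library at a time gave -0.0271 to 0.0329 for Adam10, -0.0331 to 0.0383 for Aplp1, -0.0273 to 0.0683 for Psen2, -0.0213 to 0.0394 for Bace1, 0.7149 to 1.2279 for Bace2 and -0.0287 to 0.03 for Ncstn (E17.5 Ts65Dn vs euploid). It gave -0.0489 to 0.0143 for Psen2, -0.0466 to 0.0007 for Bace1, -0.2104 to 0.4122 for Bace2 and -0.0336 to 0.0224 for Ncstn (male Ts65Dn vs euploid). It gave -0.025 to 0.0088 for Adam10 and -0.0144 to 0.0221 for Aplp1 (male Ts65Dn;Brwd1+/- vs Ts65Dn). It gave -0.0051 to 0.0291 for Bace1 (male Ts65Dn;Brwd1+/- vs euploid). It gave 0.1163 to 0.1503 for Aplp2, 1.0311 to 1.3807 for Bace2 and -0.018 to 0.0231 for Ncstn (female Ts65Dn vs euploid). It gave -0.0789 to 0.0211 for Adam10, -0.0058 to 0.0641 for Aplp1, -0.0439 to 0.0385 for Psen2, -0.0065 to 0.0259 for Aph1a, -0.0377 to 0.0057 for Bace1 and -0.0358 to 0.0198 for Ncstn (female Ts65Dn;Brwd1+/- vs Ts65Dn). It gave -0.0361 to 0.1037 for Adam10, 0.8535 to 1.2731 for Bace2 and -0.0366 to 0.019 for Ncstn (female Ts65Dn;Brwd1+/- vs euploid). It gave -0.0362 to 0.0296 for Aplp1 and -0.0286 to 0.0332 for Ncstn (the interaction of Ts65Dn vs euploid). It gave -0.0698 to 0.033 for Adam10, -0.012 to 0.0609 for Aplp1 and -0.0717 to 0.0576 for App (the interaction of Ts65Dn;Brwd1+/- vs Ts65Dn). It gave -0.2033 to -0.1085 for Adam10 and -0.0839 to 0.0272 for Psen2 (female vs male euploid). It gave -0.0249 to 0.0149 for Aph1a (female vs male Ts65Dn). It gave -0.0947 to -0.0495 for Ncstn (age).

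Precision was lowest for Bace2, at 0.739 to 7.52 CPM, whose differences had SEs of 0.32 to 0.43 on the log2 scale between adult genotypes.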

Other observations

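Within groups of the 47 adult libraries, Aph1a was the steadiest of the 9 genes for its level, with an SD of 0.0846 on the log2 scale, and 0.584% of 4108 genes of like level had a smaller one. App had an SD of 0.169, and of 0.0588 without the 6 libraries that go against their labels. Among the 15 embryos the SD of App was 0.23, larger than that of 81.7% of the genes of like level, and that of Ncstn was 0.0884, larger than that of 11.2% of its own 4783.

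With the group means removed, correlations of the 9 genes with the summed markers of 11 cell types and regions, over 15 embryos that share the makeup of each dissection, ran from -0.82 (Psen2) to 0.81 (Aplp1). With hippocampal neuron markers they were -0.80 for Aplp2, -0.68 for Psen2, -0.67 for Ncstn, -0.51 for Bace1, -0.44 for Aplp1 and 0.58 for Adam10. Over the 47 adult libraries the r with the same markers was 0.03 for Bace1 and 0.29 for Adam10. In the forebrain the summed level of 5 forebrain markers was 673 to 1448 CPM in euploid and 140.9 to 1150 CPM in Ts65Dn embryos, with overlap.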
